A study of Mus musculus with 12 samples.

Results

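The SREBP-linked genes of sterol and fatty acid synthesis were followed in mouse embryonic fibroblasts (MEFs) labelled TSC2-/-, for the tumour suppressor TSC2, which normally restrains the kinase complex mTORC1. The 39 genes were chosen by name and fell into 4 classes by role: 5 regulators, 17 sterol genes, 12 fatty acid genes and 5 triglyceride genes. All 39 had at least 1 probe set with a single gene symbol, of 18193 genes that could be named in this way, and they held 90 of the 45037 probe sets tested. Each gene is represented by its brightest probe set, the one with the highest mean log2 intensity over the 12 arrays, and no measured change entered that choice. On this measure 37 of the 39 lay at or above the median of all probe sets, and Acss2 and Lpin1 lay below it.

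Expression was measured on Affymetrix MOE430 v2 arrays, 3 for each of 4 groups. One group received 20 nM rapamycin, an inhibitor of mTORC1, for 14 h, and its controls received vehicle (DMSO) for the same time. The other groups were confluent cells infected for 10 h with adenovirus carrying either the transcriptional coactivator PGC-1alpha or, as the control, GFP, and were harvested 14 h after the medium was changed. All 4 groups carried the TSC2-/- label, so each comparison was made inside that background, and no cells with intact TSC2 were analysed here. All were grown in DMEM with 10% CCS. The sources used here do not state the viral dose or whether the cells were of 1 clone. The study's design text calls the 3 arrays of a group biological triplicates, and p-values measure the spread between these arrays, whose small number limits the precision. Values are linear intensities, normalized separately for the rapamycin experiment and the adenovirus experiment, so levels were compared only inside an experiment.

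SREBPs are transcription factors made as membrane precursors. The escort protein Scap carries them out of the endoplasmic reticulum for proteolytic release when sterols are scarce, and the Insig proteins hold Scap back when sterols are plentiful. Srebf2 encodes the form best known for sterol genes, and Srebf1 encodes forms best known for fatty acid genes and for their own transcription. mTORC1 is known to favour SREBP activity, in part by keeping lipin 1, the product of Lpin1, out of the nucleus.

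The 12 listed fibroblast markers (such as Col1a1, Vim and Fn1) were all above the median brightness, whereas 2 of 5 measured adipocyte markers and 1 of 5 hepatocyte markers were. So were 3 of 5 epithelial, 2 of 5 macrophage and 1 of 4 endothelial markers. Adipoq, a defining adipocyte gene, had 16.6 to 18.3 intensity units with rapamycin and 17.8 to 20.4 with vehicle. The adipocyte markers above the median were Fabp4 and Retn, with means of 111 and 177 units with rapamycin and 111 and 179 units with vehicle. The summed intensity of 5 epithelial markers was 1490 to 1546 with rapamycin and 1233 to 1301 with vehicle, without overlap. Most of that gap was Krt18, with means of 570.5 and 388 units. In limma Krt18 and Cdh1 rose (adjusted p = 1.1e-05 and 0.0305), while Epcam, Krt8 and Cldn4 did not pass (0.14, 0.834 and 0.111). The summed intensity of the fibroblast markers was 71690 to 76960 with rapamycin and 68780 to 70300 with vehicle. The ratio of the 3′ to the 5′ Gapdh probe set, a sign of RNA quality, was 0.807 to 0.826 with rapamycin and 0.840 to 0.861 with vehicle, and in the infected cells it was 0.894 to 0.905 for PGC-1alpha against 0.865 to 0.879 for GFP. The part of these shifts in the results below was not tested. Ppargc1a, the gene for PGC-1alpha, had 2295, 2183 and 2554 units in the infected cells against 81.0, 81.0 and 101 units with GFP, 26.8-fold higher. Tsc2 itself had 182 to 217 units with rapamycin against 248 to 278 units with vehicle (log2 change -0.40, adjusted p = 0.00079), and 233 to 257 units with PGC-1alpha against 203 to 252 units with GFP. The sources used here do not place this probe set relative to the disrupted part of the gene, so it does not show the loss and checks nothing about the genotype. In bulk samples, fewer cells of a type and less RNA per cell cannot be told apart.

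Rapamycin lowered most genes of the fatty acid arm, while the sterol genes rose and fell at about the shares of all comparably bright genes. Of the 12 fatty acid genes, 9 fell and none rose, with a median log2 change of -0.30, and all 12 estimates lay below zero. Of the 17 sterol genes, 3 rose, 4 fell and 10 did not pass the test, with a median of -0.03 (0.02 after normalization across all 12 arrays, -0.22 after spike scaling). Of the 5 triglyceride genes, 3 rose and 1 fell, with a median of 0.16 (-0.025 after spike scaling). Rises and falls are differences with an adjusted p under 0.05 (limma, Benjamini-Hochberg over all 45037 probe sets). By the same rule 11.3% of all genes rose and 18% fell, with a median change of -0.015 and a range of -0.12 to 0.07 between the quartiles. Among the 11714 genes at or above the median brightness, where nearly all of the members lie, 15.3% rose and 26.1% fell, so the sterol counts are near the background and no result about that class. The median change of those 11714 genes was -0.026, with a wider range of -0.18 to 0.09 between the quartiles. Over those brighter genes, 21.9% had every rapamycin array above every vehicle array and 33% had every one below, against 6 and 18 of the 39 members. Taken as a whole, 6 of the 39 members rose and 15 fell.

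**Figure D1:**
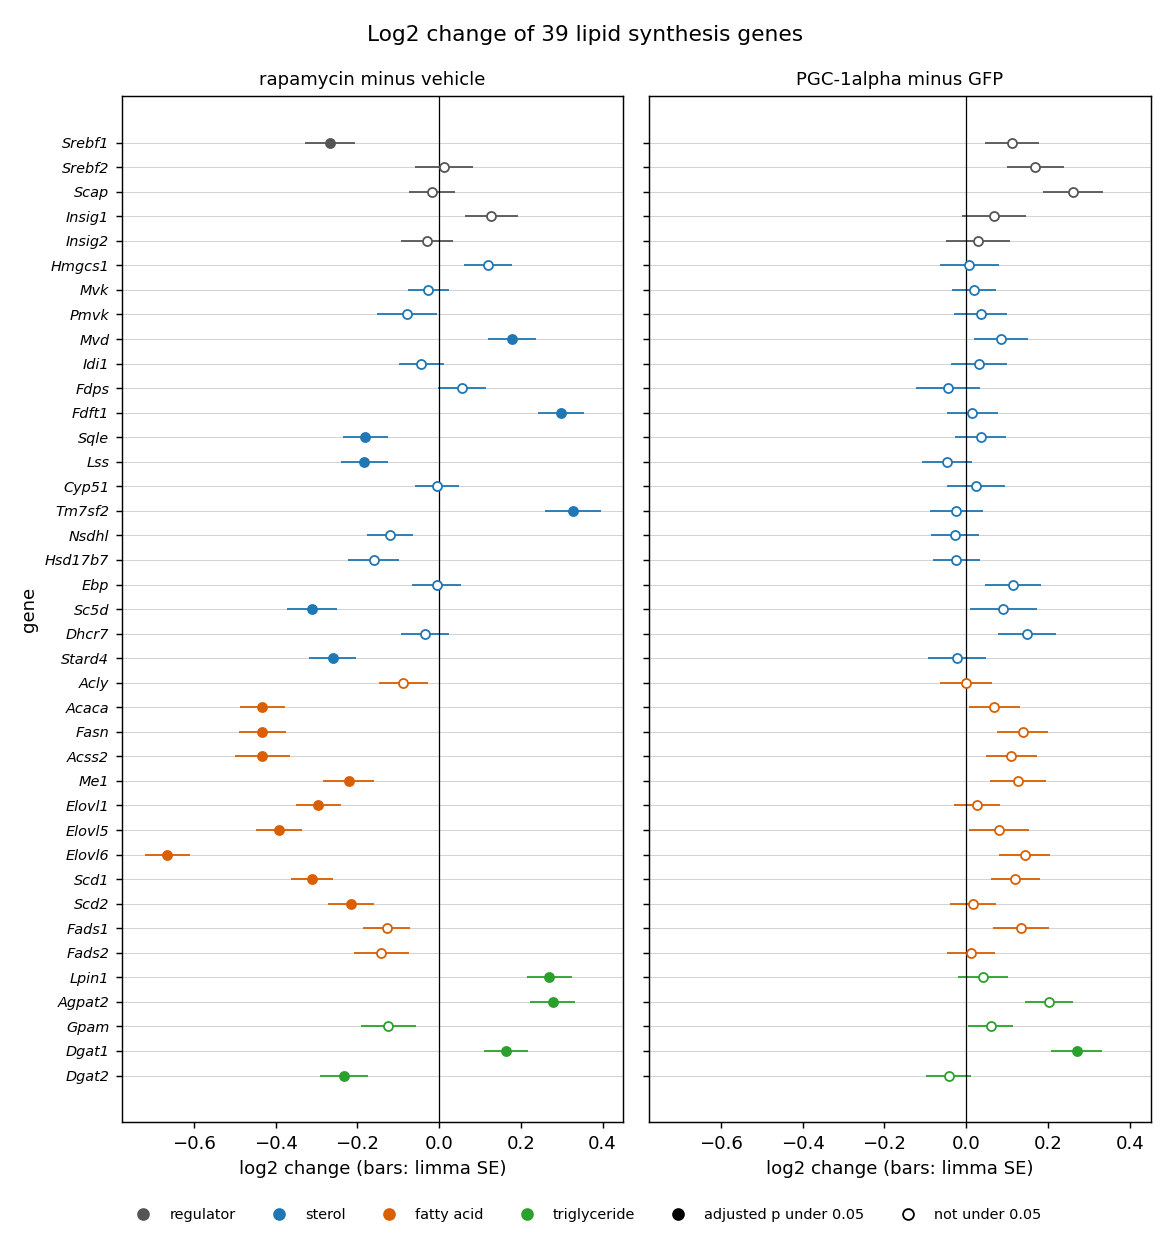
Log2 change of each of the 39 genes by role, for rapamycin minus vehicle and for PGC-1alpha minus GFP; points are the brightest probe set, bars are limma's standard errors, and filled points passed the adjusted p threshold. With rapamycin the fatty acid genes lie below zero, from -0.665 to -0.09, while the sterol genes lie on both sides, from -0.31 to 0.33, and with PGC-1alpha 1 gene of the 39 passed the test.

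Among the regulators, Srebf1 had 570, 647 and 590 units with rapamycin against 753, 718 and 700 units with vehicle. Every rapamycin array lay below every vehicle array, and Srebf1 fell by 0.27 on the log2 scale (SE 0.061, adjusted p = 0.00543). Its single probe set cannot tell which of the gene's transcript forms changed. Srebf2 had 1078, 1254 and 1065 units with rapamycin and 1070, 1099 and 1190 units with vehicle, and these overlapped (log2 change 0.01, SE 0.071, adjusted p = 0.929). Scap had 791, 876 and 817 units with rapamycin against 860, 841 and 812 units with vehicle, also overlapping (adjusted p = 0.879). Insig1, whose transcript is a well known target of SREBPs, had 557, 650 and 621 units with rapamycin against 566, 571 and 533 units with vehicle. Insig1 thus overlapped between the groups as well (log2 change 0.13, 95% interval -0.01 to 0.27, adjusted p = 0.186); Insig1 passed after normalization across 12 arrays (0.21, adjusted p = 0.0104) and without rapamycin replicate 1 (0.19, adjusted p = 0.0434), and had the opposite sign after spike scaling (-0.06, adjusted p = 0.527). Insig2 had 278, 313 and 311 units with rapamycin against 311, 320 and 288 units with vehicle (adjusted p = 0.811). So 1 of 5 regulators passed the test, a share near that of all genes lowered.

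Fatty acid synthesis starts from acetyl-CoA, which Acly makes from citrate and Acss2 makes from acetate. Acss2 had 71.3, 69.5 and 66.0 units with rapamycin against 92.8, 85.25 and 101 units with vehicle, and it fell by 0.43 on the log2 scale (SE 0.067, adjusted p = 0.00031). A second Acss2 probe set, almost as bright (75.5 against 75.9 units over the 12 arrays), gave -0.05 and did not pass the test (adjusted p = 0.646). The third fell by 0.22 (adjusted p = 0.0185). Acly had 1811, 2034 and 1916 units with rapamycin against 2093, 2055 and 1969 units with vehicle. Its groups overlapped, and it did not pass the test (log2 change -0.09, SE 0.059, adjusted p = 0.341), nor did any of its 6 probe sets.

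Acaca encodes acetyl-CoA carboxylase, which makes malonyl-CoA in the committed step, and Fasn encodes the synthase that builds palmitate from it. Acaca had 476, 503 and 515 units with rapamycin against 684, 656 and 676 units with vehicle, a fall of 1.35-fold (log2 change -0.43, SE 0.055, adjusted p = 5.6e-05). Fasn had 1157, 1261 and 1145 units with rapamycin against 1590, 1564 and 1651 units with vehicle (log2 change -0.43, SE 0.057, adjusted p = 8.6e-05). Me1, the cytosolic malic enzyme that supplies NADPH, had 658, 741 and 644 units with rapamycin against 773, 797 and 808 units with vehicle (log2 change -0.22, SE 0.062, adjusted p = 0.0184). The groups did not overlap for any of these 3 genes. Of the 5 genes that supply carbon and NADPH or build the chain, 4 fell, with a median change of -0.43.

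The elongases lengthen fatty acids by carbon pairs, and all 3 listed elongases fell. Elovl6, which extends palmitate towards stearate, had 476, 519 and 482 units with rapamycin against 788, 785 and 768 units with vehicle. This fall of 1.59-fold was the largest among the 39 genes (log2 change -0.665, SE 0.055, adjusted p = 2.1e-06), and it was the only member to pass 1.5-fold in either experiment. Elovl5, which extends polyunsaturated chains, had 1616, 1808 and 1739 units with rapamycin against 2234, 2239 and 2293 units with vehicle (log2 change -0.39, SE 0.057, adjusted p = 0.00019). Elovl1, which makes very long saturated chains, had 1002, 1085 and 1044 units with rapamycin against 1268, 1296 and 1276 units with vehicle (log2 change -0.295, SE 0.054, adjusted p = 0.00105). In each of the 3 genes the highest rapamycin array stayed below the lowest vehicle array.

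Desaturases place double bonds in finished chains, and 2 of the 4 listed passed the test. Scd1 and Scd2 make monounsaturated fats such as oleate. Scd1 had 1085, 1082 and 1072 units with rapamycin against 1317, 1387 and 1315 units with vehicle (log2 change -0.31, SE 0.052, adjusted p = 0.00057). Scd2 had 4617, 4995 and 4966 units with rapamycin against 5828, 5617 and 5477 units with vehicle (log2 change -0.22, SE 0.056, adjusted p = 0.0117). Both were lower on every rapamycin array. Fads1 and Fads2 act on polyunsaturated chains. Fads1 had 1427 to 1560 units with rapamycin and 1572 to 1660 units with vehicle, and its log2 change of -0.13 missed the threshold (adjusted p = 0.126) although the arrays did not overlap. The second probe set of Fads1, at 183.5 units, pointed the other way (log2 change 0.20, adjusted p = 0.0874). Fads2 overlapped, at 1309 to 1541 units with rapamycin and 1480 to 1597 units with vehicle (log2 change -0.14, adjusted p = 0.165), while a second probe set of the gene fell by 0.22 (adjusted p = 0.0108).

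**Figure D2:**
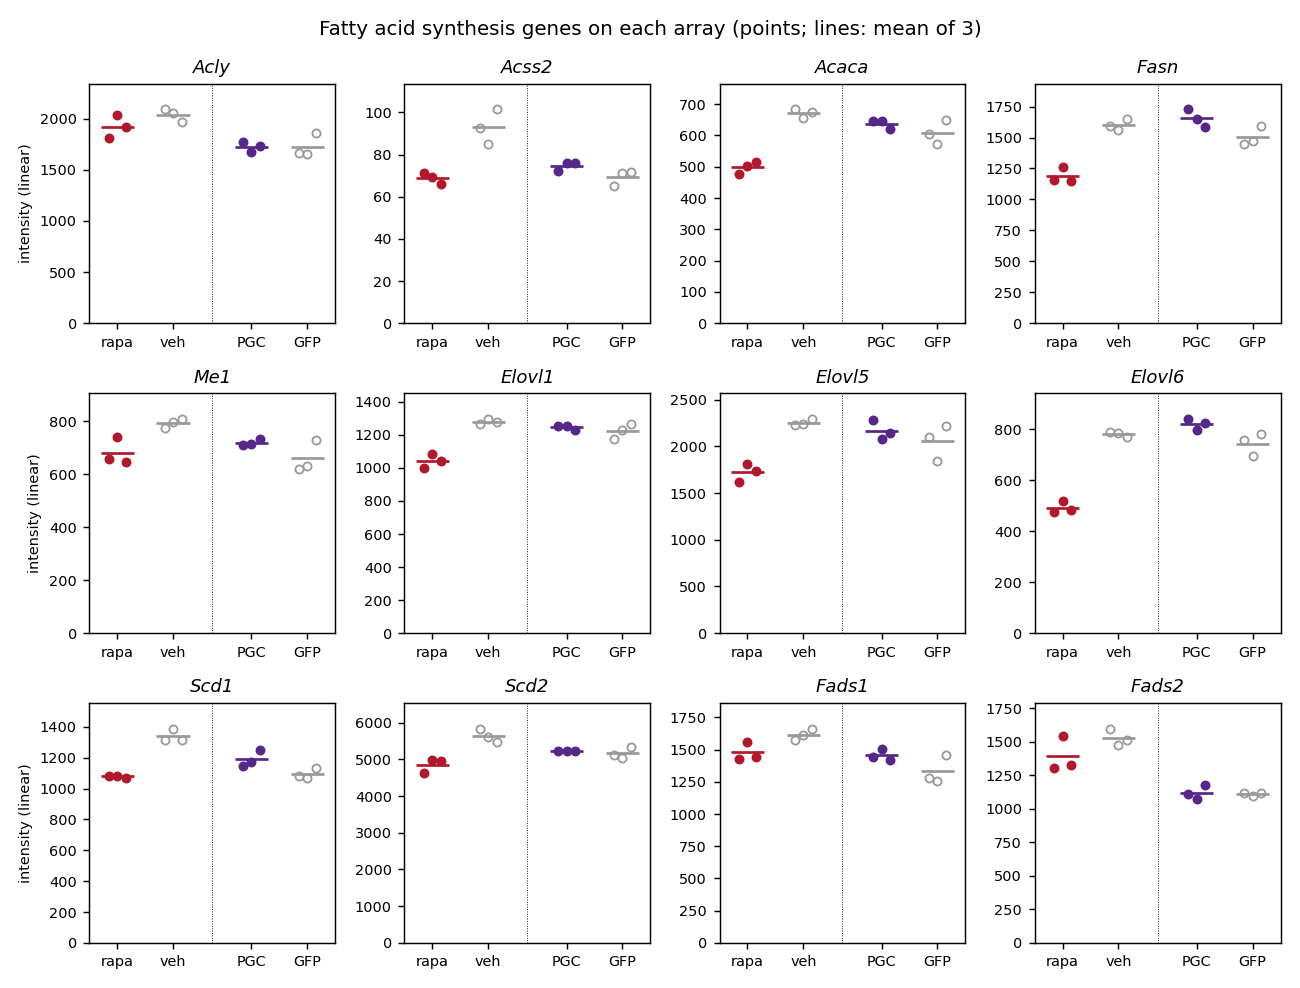
Intensity (linear, from 0) of the 12 fatty acid genes on each of the 12 arrays, in the order rapamycin (rapa), vehicle (veh), PGC-1alpha (PGC) and GFP; points are arrays, lines are means of 3, and the dotted line parts the separately normalized experiments. Elovl6 shows the widest gap, at 476 to 519 units with rapamycin and 768 to 788 units with vehicle. The PGC-1alpha and GFP arrays lie closer together, although for Elovl6, Scd1 and Acss2 every PGC-1alpha array lies above every GFP array.

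The sterol genes are given next in the order of the pathway, with calls in both directions at shares near the background. In the stretch from HMG-CoA synthase to farnesyl diphosphate, 1 of 6 genes passed the test, with a median change of 0.015. That gene was Mvd, the decarboxylase that makes isopentenyl diphosphate, with 364, 394.5 and 381 units with rapamycin against 317.5, 349 and 341 units with vehicle (log2 change 0.18, SE 0.058, adjusted p = 0.0386). Hmgcs1, the HMG-CoA synthase, had 4272, 4581 and 4464 units with rapamycin and 4069, 4295 and 3895 units with vehicle, which overlapped (log2 change 0.12, SE 0.058, adjusted p = 0.162). Of the 5 probe sets of Hmgcs1, 3 others rose, by 0.175 to 0.25, so the brightest one gave the smallest estimate. The kinases Mvk and Pmvk, the isomerase Idi1 and the farnesyl diphosphate synthase Fdps had log2 changes of -0.08 to 0.06 and did not pass the test.

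From squalene onward, 2 of 10 genes rose and 3 fell. Fdft1, the squalene synthase and the first step given over to sterols, had 1597, 1771 and 1705 units with rapamycin against 1333, 1401 and 1390 units with vehicle. It rose 1.23-fold (log2 change 0.30, SE 0.057, adjusted p = 0.00153), and its second brightest probe set gave 0.29. Its dimmer probe sets, at 77.1 and 68.9 units, gave -0.02 and -0.0, and the mean over its probe sets did not pass (0.14, adjusted p = 0.0525). The next enzymes, Sqle and Lss, were lower with rapamycin, but neither passed after normalization across 12 arrays (adjusted p = 0.156 and 0.279). Sqle, the squalene epoxidase, had 1634, 1763 and 1651 units with rapamycin against 1868, 1911 and 1938 units with vehicle (log2 change -0.18, SE 0.055, adjusted p = 0.0266). Lss, which closes the ring to lanosterol, had 745, 721 and 682 units with rapamycin against 812.5, 786 and 840 units with vehicle (log2 change -0.18, SE 0.057, adjusted p = 0.0295). In all 3 genes the arrays of the groups were apart.

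The ring of lanosterol is then trimmed and reduced to cholesterol. Tm7sf2, a sterol reductase, had 240, 204 and 230 units with rapamycin against 190, 172 and 175 units with vehicle, the largest rise among the members (log2 change 0.33, SE 0.068, adjusted p = 0.00276). Sc5d, a sterol desaturase, had 534.5, 612 and 603 units with rapamycin against 712, 727 and 728 units with vehicle, the largest fall among the sterol genes (log2 change -0.31, SE 0.061, adjusted p = 0.00185). The second brightest probe set of Sc5d fell by 0.27 (adjusted p = 0.00295), while the third gave 0.07 and did not pass the test (adjusted p = 0.444). The remaining ring genes, Cyp51, Nsdhl, Hsd17b7, Ebp and Dhcr7, had log2 changes of -0.16 to -0.005 and did not pass the test; of these Nsdhl and Hsd17b7 were lower on every rapamycin array than on any vehicle array. Stard4, a carrier of sterols between membranes, had 716.5, 748 and 722 units with rapamycin against 858, 926 and 837 units with vehicle (log2 change -0.26, SE 0.057, adjusted p = 0.00387), and all 3 of its probe sets fell.

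The triglyceride genes also split. Lpin1, a phosphatidate phosphatase that can also act in the nucleus, had 80.8, 83.7 and 89.9 units with rapamycin against 69.6, 70.9 and 70.2 units with vehicle (log2 change 0.27, SE 0.056, adjusted p = 0.00281), and both of its probe sets rose. Agpat2, which makes phosphatidate, had 349, 372 and 352 units with rapamycin against 286, 304 and 295 units with vehicle (log2 change 0.28, SE 0.055, adjusted p = 0.00182). For both genes all rapamycin arrays were above all vehicle arrays. The enzymes of the last step went apart: Dgat1 had 416, 417 and 409 units with rapamycin against 352, 377 and 381 units with vehicle (log2 change 0.16, SE 0.054, adjusted p = 0.0419). Dgat2 had 204.5, 193 and 182 units with rapamycin against 235, 225 and 220 units with vehicle (log2 change -0.23, SE 0.059, adjusted p = 0.0101), and its other probe set fell by 0.53. Gpam, which acylates glycerol phosphate, overlapped at 356 to 428 units with rapamycin and 417 to 433 units with vehicle (adjusted p = 0.220).

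**Figure D3:**
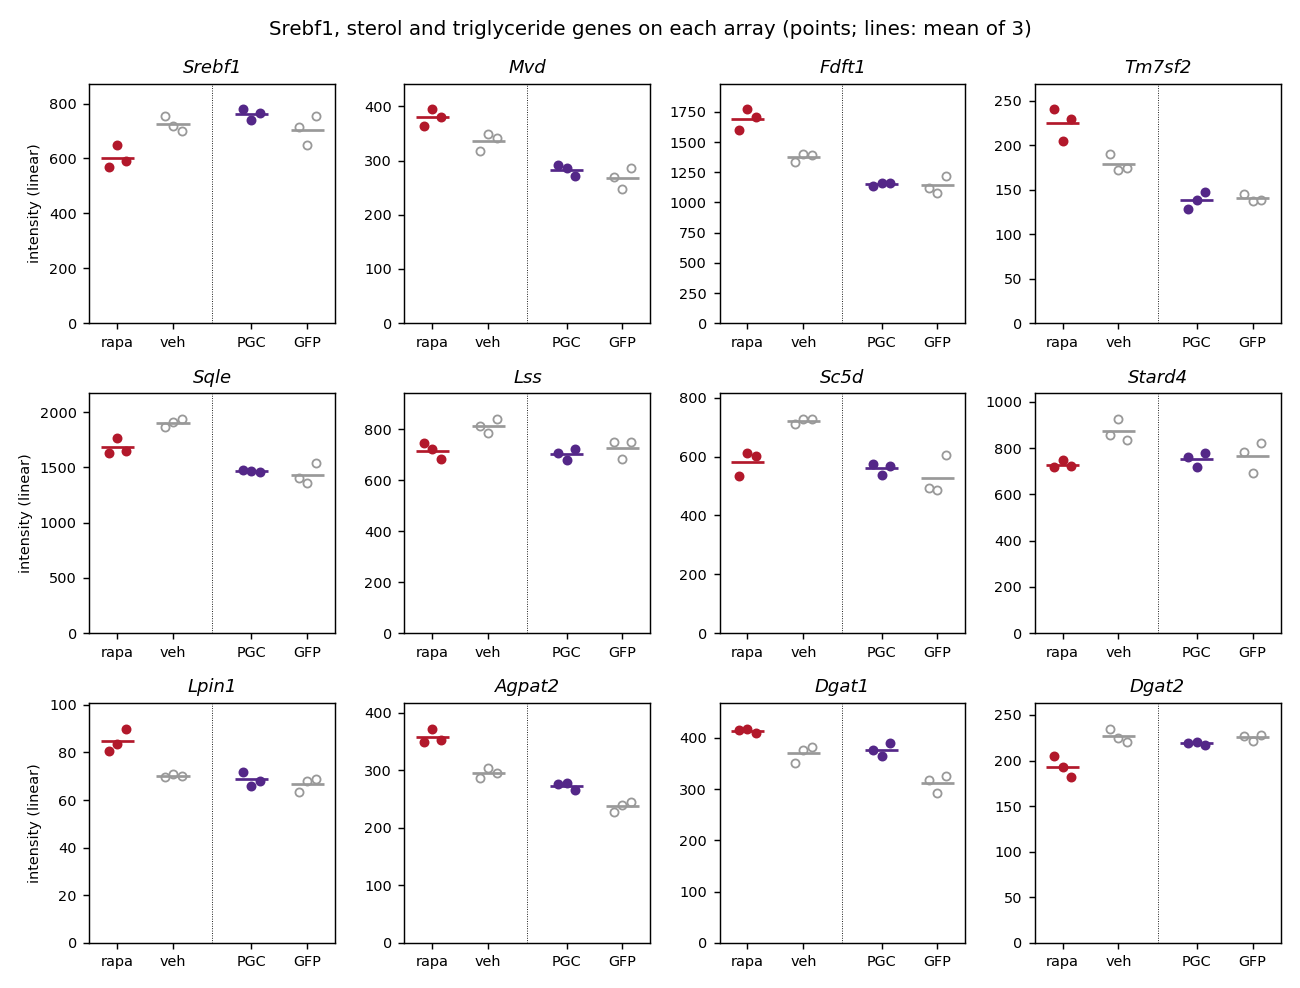
Intensity (linear, from 0) of Srebf1 and of the sterol and triglyceride genes that passed the test in either experiment, on each of the 12 arrays, in the order rapamycin, vehicle, PGC-1alpha and GFP; points are arrays, lines are means of 3, and the dotted line parts the separately normalized experiments. Fdft1 and Tm7sf2 are higher on every rapamycin array than on any vehicle array, and Sc5d and Stard4 are lower.

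The 90 probe sets of the members were counted in the same way, beside 14% lowered and 11.5% raised of all 45037 probe sets. In the fatty acid class, 21 of 33 probe sets fell and none rose. In the sterol class, 8 of 39 fell and 7 rose, and among 9 triglyceride probe sets 2 fell and 4 rose. Of the 29 genes with more than 1 probe set, 8 had every probe set lowered, 1 had every one raised, and none had calls in both directions. The same was not counted over all genes with more than 1 probe set, so whether these counts are unusual was not tested. Dim probe sets carry part of the spread: the third probe set of Elovl6, at 61.9 units, had a log2 change of 0.025, and the dimmest of Cyp51, at 42.9 units, fell by 0.31 while its other probe sets gave -0.005 and 0.02.

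**Figure D4:**
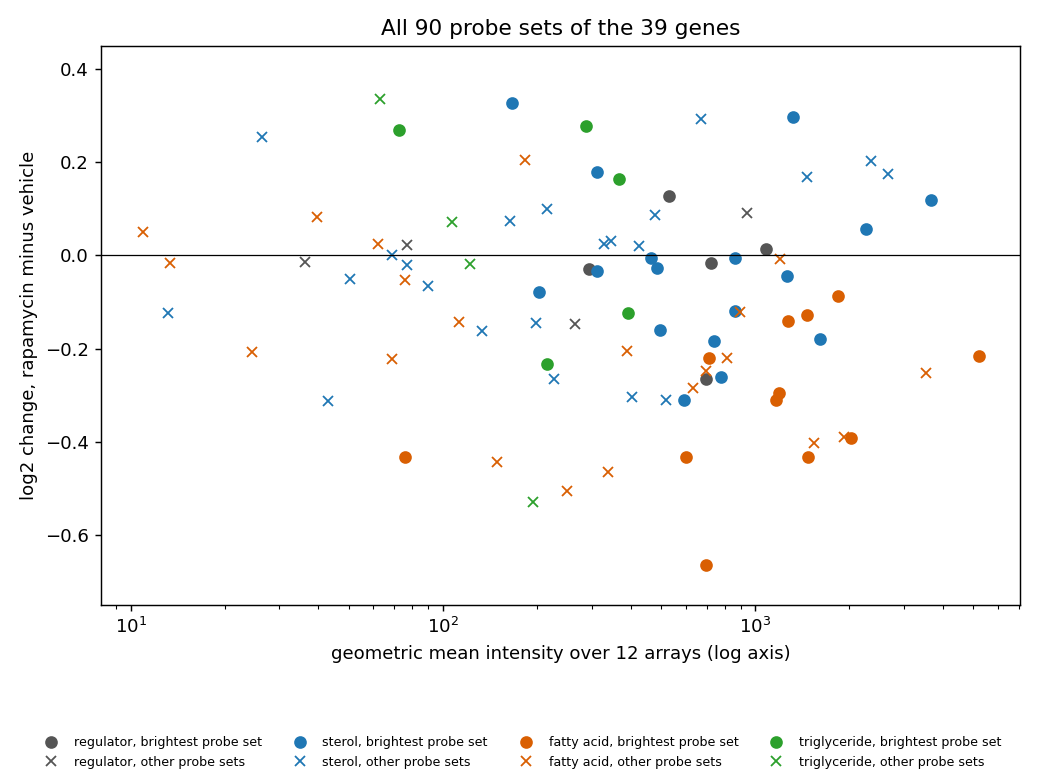
Log2 change, rapamycin minus vehicle, of all 90 probe sets of the 39 genes against their geometric mean intensity over 12 arrays (log axis); filled circles are each gene's brightest probe set and crosses its other probe sets, coloured by class. Above about 100 units most fatty acid probe sets lie below zero, down to -0.665 for Elovl6, while sterol probe sets lie on both sides.

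Single arrays mattered for the smaller changes, and rapamycin replicate 2 was the highest rapamycin array for 31 of the 39 members. No count over all genes stands beside this, so whether it is particular to the members was not tested. Of the 9 falls among fatty acid genes, 7 passed the test whichever array was left out; Me1 was lost in 4 of 6 cases (adjusted p up to 0.0916) and Scd2 without vehicle replicate 1 (adjusted p = 0.0599). Of the 7 sterol calls, 4 were kept throughout (Fdft1, Tm7sf2, Sc5d and Stard4), while Mvd was lost in 4 of 6 cases, Sqle in 5 and Lss in 3. The count of lowered sterol genes was 2 in place of 4 without rapamycin replicate 3, vehicle replicate 1 or vehicle replicate 3. Lpin1, Agpat2 and Srebf1 kept their calls, Dgat2 lost its call in 2 cases and Dgat1 in 5. Spike scaling, which sets each array by its bacterial spike controls and moved the median of all probe sets to -0.19 in place of -0.001, gave 0 sterol genes raised and 10 lowered, 0 triglyceride genes raised and 2 lowered, and 12 of 12 fatty acid genes lowered. The fatty acid median was then -0.49 and the sterol median -0.22, and Mvd (log2 change -0.01) and Dgat1 (-0.025) changed sign, so the rises stated for sterol and triglyceride genes are relative to the other probe sets. The mean log2 signal of these spikes was 10.6 to 10.8 with rapamycin and 10.5 to 10.6 with vehicle, without overlap.

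Promoter windows were set beside these changes, since SREBPs are known to act at short elements near the start site together with the factors NF-Y and Sp1. RefSeq windows of 250 bases before to 50 after the start (GRCm38.p6) were at hand for 30 of the 39 genes, with 41 windows. For Fdps, Fdft1, Sqle, Stard4, Scd1, Scd2, Fads1, Dgat1 and Dgat2 no window was used here. The searches, on both strands, were for TCACNCCAC (the core of a sterol regulatory element), CACGTG (an E-box), CCAAT (the NF-Y box, which reads ATTGG on the other strand) and GGGCGG (a GC box, bound by Sp1). TCACNCCAC was found in 1 of 41 windows, that of Hmgcs1, against 1.24% of 32851 windows of all genes. CACGTG stood in 7 of 41 windows (17.1%), against 7.15% of all, in 3 of 13 sterol genes, 1 of 9 fatty acid genes and 2 of 5 regulators. The windows of Scap overlap, so the same E-box is counted in each of them. CCAAT stood in 25 windows (61%), against 37.4% of all. All 13 sterol genes with a window held it, as did 6 of 9 fatty acid genes, 1 of 3 triglyceride genes and 4 of 5 regulators. By window, it stood in 13 of 16 for sterol genes, 6 of 11 for fatty acid genes, 1 of 4 for triglyceride genes and 5 of 10 for regulators. GGGCGG stood in 29 windows (70.7%), against 35.7% of all, in 12 of 13 sterol genes and 5 of 9 fatty acid genes. A gene was counted if any of its windows held the motif, so the gene counts cannot be set against the shares of all windows. Those shares were also not limited to the brighter genes. CCAAT can overlap itself across strands, as in Fasn. A match is a description of letters and not a bound site, and a missing match says only that the letters are not in the window.

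The 250 bases before the start are shown for 6 genes: the fatty acid gene with the largest fall and the palmitate synthase, then the sterol genes with the element core, with the most CCAAT boxes, with the largest rise and with the largest fall. Each is written 5′ to 3′ on the gene's own strand and ends at the base before the start, and capitals mark TCACNCCAC, CACGTG and CCAAT or ATTGG.
Elovl6 (chr3:129532136-129532385, plus strand): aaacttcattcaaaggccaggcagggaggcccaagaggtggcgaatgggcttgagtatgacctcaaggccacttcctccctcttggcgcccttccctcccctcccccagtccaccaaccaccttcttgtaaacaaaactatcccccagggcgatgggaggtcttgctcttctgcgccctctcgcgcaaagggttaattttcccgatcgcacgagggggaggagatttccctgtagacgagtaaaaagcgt
Fasn (chr11:120824548-120824797, minus strand): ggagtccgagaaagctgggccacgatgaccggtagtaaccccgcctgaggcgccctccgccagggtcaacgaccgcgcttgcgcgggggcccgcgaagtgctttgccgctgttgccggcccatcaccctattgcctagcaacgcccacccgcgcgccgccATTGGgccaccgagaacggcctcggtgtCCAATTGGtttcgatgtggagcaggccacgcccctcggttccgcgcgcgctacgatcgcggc
Hmgcs1 (chr13:119690101-119690350, plus strand): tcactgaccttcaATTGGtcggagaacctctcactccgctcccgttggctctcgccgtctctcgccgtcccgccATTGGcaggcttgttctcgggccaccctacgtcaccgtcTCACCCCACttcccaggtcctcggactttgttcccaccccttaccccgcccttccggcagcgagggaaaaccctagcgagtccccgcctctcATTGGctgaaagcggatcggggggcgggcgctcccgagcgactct
Mvk (chr5:114444019-114444268, plus strand): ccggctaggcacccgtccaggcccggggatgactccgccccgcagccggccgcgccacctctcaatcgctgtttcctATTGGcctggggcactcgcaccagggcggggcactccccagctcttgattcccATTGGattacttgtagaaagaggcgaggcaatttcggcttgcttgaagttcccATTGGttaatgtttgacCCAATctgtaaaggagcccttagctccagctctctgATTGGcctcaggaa
Tm7sf2 (chr19:6067851-6068100, minus strand): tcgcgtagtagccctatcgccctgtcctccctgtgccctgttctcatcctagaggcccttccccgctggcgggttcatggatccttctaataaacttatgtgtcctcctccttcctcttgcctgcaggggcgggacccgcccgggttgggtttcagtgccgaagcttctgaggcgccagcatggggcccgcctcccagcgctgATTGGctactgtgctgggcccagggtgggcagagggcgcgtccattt
Sc5d (chr9:42264301-42264550, minus strand): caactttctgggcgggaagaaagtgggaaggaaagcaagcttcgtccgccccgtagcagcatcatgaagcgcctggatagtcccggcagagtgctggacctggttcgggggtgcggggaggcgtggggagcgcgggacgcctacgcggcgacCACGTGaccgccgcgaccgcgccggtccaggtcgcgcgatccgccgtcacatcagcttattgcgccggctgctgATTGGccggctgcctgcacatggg
The Elovl6 stretch, of the gene with the largest fall, held none of the marked motifs. Fasn held 3 CCAAT boxes, of which those starting at -62 and -59 overlap on opposite strands. In Hmgcs1 the element core starts at -137, between CCAAT boxes starting at -176 and -45. Mvk, whose log2 change was -0.03, held 5 CCAAT boxes, the most of any member window. Tm7sf2 and Sc5d, which moved in opposite directions, each held 1 CCAAT box in the last 50 bases, starting at -47 and -24, and Sc5d also held an E-box starting at -98.

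Genes beside the listed ones were counted in the same way, from lists of neighbours in each pathway. Both lists were drawn up with earlier results of these data known, so their counts are no independent support for the changes above. Of 31 measured neighbours in fatty acid and triglyceride metabolism, 12 fell with rapamycin and none rose, with a median change of -0.04, against 18% lowered and 11.3% raised of all genes and 26.1% and 15.3% of the brighter ones. The largest falls were in Agpat5, a lysophosphatidate acyltransferase, with 275, 280 and 282 units with rapamycin against 542, 561 and 507 units with vehicle (log2 change -0.94, SE 0.056, adjusted p = 2.1e-07). Next came Fads3, a relative of the Fads desaturases (log2 change -0.74), Acsl5, which activates fatty acids (-0.48), and Hacd2, the dehydratase of the elongation cycle (-0.41). The reductase Hsd17b12 (-0.34) and the dehydratase Hacd3 (-0.21) of the same cycle fell too, whereas its last enzyme, Tecr, did not pass the test (0.10, adjusted p = 0.284); these 3 were chosen after their values were seen.

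Of 14 measured sterol neighbours, 3 rose and 3 fell, with a median change of 0.01, which is near the shares of 15.3% raised and 26.1% lowered among the brighter genes. Tmem97, a sterol-responsive membrane protein that binds the cholesterol transporter Npc1, had 299, 335 and 320 units with rapamycin against 718, 705 and 705 units with vehicle (log2 change -1.16, SE 0.057, adjusted p = 5.9e-08). Abca1, which exports cholesterol, had 298, 324 and 331 units with rapamycin against 170, 165 and 179 units with vehicle (log2 change 0.89, SE 0.060, adjusted p = 4.9e-07). Both changes were larger than that of any of the 39 members. The lipoprotein receptor Vldlr (-0.69) and Erlin1 (-0.49), which restrains SREBP in the endoplasmic reticulum, fell, while the lysosomal cholesterol carrier Npc2 and the SREBP protease gene Mbtps1 rose, each by 0.31.

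With PGC-1alpha, almost none of these genes passed the test. A gene that did not pass may still have changed. In simulated data for this comparison, 76 of 100 changes of 0.5 on the log2 scale were recovered. The largest change among the members was 0.27. Of the 39, 1 rose and none fell, against 1.41% of all genes that rose and 0.594% that fell (2.14% and 0.871% of the genes at or above the median brightness). The 17 sterol genes had log2 changes of -0.05 to 0.15 with a median of 0.02, and 95% intervals within -0.21 to 0.30. The 12 fatty acid genes had changes of 0.00 to 0.14 with a median of 0.095, and intervals within -0.14 to 0.28. All genes had a median of 0.01. At an unadjusted p under 0.05 there were 6 of 39 genes, 2 of them among the fatty acid genes and none among the sterol genes, against 16.5% of the genes at or above the median brightness.

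The gene that rose was Dgat1, with 375, 364 and 389 units with PGC-1alpha against 318, 293 and 326 units with GFP. The groups were apart (log2 change 0.27, SE 0.062, adjusted p = 0.0490). The call was close to the threshold and was lost without any 1 array other than GFP replicate 3, with adjusted p of 0.122 to 0.239, and its second probe set gave 0.025 (adjusted p = 0.949). Dgat1 was also among the genes raised by rapamycin, by a call that was near the threshold too (adjusted p = 0.0419). The rapamycin call was lost in 5 of 6 cases when 1 array was left out, and spike scaling gave -0.025. With rapamycin the second probe set gave 0.07 (adjusted p = 0.423). The brightest probe set was thus higher than its control in both experiments, but neither call was firm.

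Of the 39 members, 7 were higher on every PGC-1alpha array than on any GFP array and 1, Dgat2, was lower. Among genes at or above the median brightness 13.7% were placed above in this way and 5.58% below. Besides Dgat1, these were Scap, Agpat2, Elovl6, Acss2, Scd1 and Gpam, none of which passed the test. Scap had 730, 664 and 669 units with PGC-1alpha against 545, 544.5 and 634 units with GFP (log2 change 0.26, SE 0.073, adjusted p = 0.106). Agpat2 had 276, 278 and 265 units with PGC-1alpha against 228, 239 and 245 units with GFP (log2 change 0.20, SE 0.058, adjusted p = 0.120). Elovl6 had 840, 796 and 824 units with PGC-1alpha against 758, 693 and 780 units with GFP (log2 change 0.14, SE 0.063, adjusted p = 0.394). These were the regulator with the largest change, a triglyceride gene, and the fatty acid gene with the largest change. Dhcr7, which makes cholesterol in the last step and had the largest change among the sterol genes, overlapped at 296, 303 and 322 units with PGC-1alpha against 259, 267 and 306 units with GFP (log2 change 0.15, adjusted p = 0.455).

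The other regulators overlapped between the infected groups. Srebf1 had 779, 740 and 764 units with PGC-1alpha against 713.5, 648 and 754 units with GFP (log2 change 0.11, SE 0.066, adjusted p = 0.596). Srebf2 had 1113, 1209 and 1021 units with PGC-1alpha against 952.5, 993 and 1021 units with GFP (log2 change 0.17, SE 0.069, adjusted p = 0.339). Insig1 had 526, 483 and 473 units with PGC-1alpha against 444, 442 and 532 units with GFP, and Insig2 had 281, 271 and 315.5 units with PGC-1alpha against 271, 266 and 315 units with GFP (adjusted p = 0.856 and 0.948). With PGC-1alpha none of the measured neighbours in either pathway passed the limma test, and 2 of 14 sterol neighbours and 5 of 31 fatty acid and triglyceride neighbours had an unadjusted p under 0.05, beside 16.5% of the genes at or above the median brightness.

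GFP replicate 3 stood apart from the other GFP arrays. It was the highest GFP array for 32 of the 39 members, all 5 regulators among them, again with no count over all genes beside this. Without GFP replicate 3, Scap rose (log2 change 0.34, adjusted p = 0.00801), as did Dhcr7 (0.22, adjusted p = 0.0478), Agpat2 and Dgat1. The same step moved the count of raised probe sets over the whole array to 1957, against 449 with all 6 arrays.

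The effects of the treatments were set against each other in a fit of all 12 arrays, as the PGC-1alpha change minus the rapamycin change. The difference passed the test for 13 members on the side of a higher PGC-1alpha change and for 2 on the other side. Over all genes these shares were 16.5% and 7.59%, and over the genes at or above the median brightness 24.5% and 10.3%. Of the 12 fatty acid genes, 10 differed, all in 1 direction, with a median difference of 0.39 over the class. With class medians of -0.30 for rapamycin and 0.095 for PGC-1alpha, this mostly restates the rapamycin falls with the sign turned and is no separate result. The experiments also differed in infection and in normalization batch. The difference was 0.81 for Elovl6 (SE 0.082, adjusted p = 1.1e-06), 0.57 for Fasn (SE 0.085, adjusted p = 5.9e-05) and 0.50 for Acaca (SE 0.082, adjusted p = 0.00015). Acly and Fads2 did not pass the test, and Fads1 did (0.26, adjusted p = 0.0418) although it had passed in neither experiment by itself.

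Of the 17 sterol genes, 3 differed. Sc5d had the higher change with PGC-1alpha (difference 0.40, SE 0.106, adjusted p = 0.00932). Fdft1 (-0.28, SE 0.084, adjusted p = 0.0203) and Tm7sf2 (-0.35, SE 0.097, adjusted p = 0.0127) had the lower one. Among the regulators the difference was 0.38 for Srebf1 (SE 0.092, adjusted p = 0.00506) and 0.28 for Scap (SE 0.094, adjusted p = 0.0419), and it did not pass for Srebf2, Insig1 or Insig2. No triglyceride gene passed the test of the difference in limma (lowest adjusted p = 0.0564), and 3 of the 5 had an unadjusted p under 0.05, beside 45.7% of the genes at or above the median brightness.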

How the data were processed

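Each probe set has 1 deposited intensity per array, made by the authors with RMA (default settings, BioConductor 1.2), in 1 batch per experiment, per the series' design text. RMA corrects background, applies quantile normalization within a batch and summarises probes, so changes are relative to the other probe sets. No source used here states the scale of these deposited intensities; since they run from 9.299 to 21072.4, they were taken as linear and converted to log2 with no pseudocount. Detection calls were not used, and dim probe sets may therefore hold background alone.

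Of 45101 probe sets, 64 controls were left out. Of the rest, 34945 had 1 gene symbol in the platform annotation, 932 several and 9160 none listed; the Entrez IDs of 34741 probe sets were found in the RefSeq table of GRCm38.p6. The 6 arrays of an experiment were fitted by themselves in limma 3.58.1 (lmFit, eBayes; R 4.3.3), with two-sided p-values adjusted by Benjamini-Hochberg over 45037 probe sets at a threshold of 0.05. The difference between effects was a contrast of 4 group means over 12 arrays. Python 3.11.15, pandas 2.3.3 and matplotlib 3.10.9 made tables and figures. The fit was tested on simulated data.

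The 39 members, the neighbour and marker lists and the tests were chosen with earlier results of these data known. All members could be named. Arrays were given for the regulators, for each gene past the threshold and for the largest change of a class, and neighbours were named by the 4 largest changes in each direction. Alternatives covered normalization across 12 arrays, spike scaling, a filter on dim probe sets, 1 fit of all arrays, a variance trend, the choice of probe set, a replicate block, a 1.5-fold rule and leaving out each array.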

Additional observations from a re-analysis of the deposited data

How the results depend on the processing

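Counts of genes past the threshold were recomputed under each alternative, beside 3 raised and 4 lowered sterol genes, and 3 raised and 10 lowered fatty acid and triglyceride genes with rapamycin, and beside 1 raised fatty acid and triglyceride gene with PGC-1alpha. With the 1.5-fold rule, rapamycin raised 0 and lowered 0 sterol genes, raised 0 and lowered 1 fatty acid and triglyceride gene (Elovl6), and PGC-1alpha raised 0, since nearly all changes were smaller than that. With spike scaling, rapamycin raised 0 and lowered 10 sterol genes, and raised 0 and lowered 14 fatty acid and triglyceride genes, and PGC-1alpha raised 0. Under it Mvd (-0.01, adjusted p = 0.921) and Dgat1 (-0.025, adjusted p = 0.811) changed sign with rapamycin. It moved the median of all probe sets to -0.19 with rapamycin and 0.165 with PGC-1alpha, and over all probe sets it gave 1448 raised and 18556 lowered with rapamycin, against 5168 and 6301. Normalization across 12 arrays lowered 2 sterol genes with rapamycin. With PGC-1alpha, 2 fatty acid and triglyceride genes were raised in the fit of all 12 arrays and 0 with a variance trend or with the mean over a gene's probe sets; the cause was not tested. Leaving out 1 array gave 2 to 5 lowered and 2 to 3 raised sterol genes, and 8 to 13 lowered and 2 to 3 raised fatty acid and triglyceride genes with rapamycin. With PGC-1alpha it gave 0 to 1 raised sterol genes and 0 to 2 raised fatty acid and triglyceride genes; GFP replicate 3 was the array whose loss added calls. Samples share replicate numbers, but same-numbered arrays did not deviate together (correlations of -0.05 to 0.07 for rapamycin and -0.13 to 0.23 for PGC-1alpha), so the numbers were not taken as pairs. With the replicate block, rapamycin raised 3 and lowered 4 sterol genes, and raised 2 and lowered 10 fatty acid and triglyceride genes, and PGC-1alpha raised 1. The filter on dim probe sets and the brightest probe set over 6 arrays kept each count within 1.5 times its value.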
